A study of Mus musculus with 6 samples.

Results

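The classical complement pathway is described here by 8 genes: C1qa, C1qb and C1qc, which encode the chains of C1q, the protease genes C1ra and C1s1, the component genes C4b and C2, and Serping1, which encodes the C1 inhibitor. They were taken by gene symbol from a table of 16671 genes, and all 8 were in it. The data are 6 RNA sequencing libraries of FAPs (fibro-adipogenic progenitors), stromal cells that lie between muscle fibres, a population obtained by fluorescence-activated sorting of hindlimb muscle (wild-type mice, 4 to 5 months old). The labels call the cells FAPs, but their extraction text names muscle stem cells. In 3 libraries the cells had received vehicle (control), and in 3 they had received C1q protein at 100 µg/ml. How long the cells were treated, and whether a replicate is its own mouse or culture, is not given in the sources used here, so the p-values reflect the spread among these 6 libraries alone, and that spread may be technical. The comparison asks how added C1q changes expression of the genes of its own pathway.

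In the classical pathway, C1q binds antibody on a surface, or other ligands such as dying cells, and carries the protease C1r, which activates the protease C1s. C1s cleaves C4 and then C2, and their fragments form the convertase that cleaves C3. The C1 inhibitor is a serpin that binds C1r and C1s and takes them off C1q. Liver makes most of the complement in plasma, macrophages are a main source of C1q, and fibroblasts are known to make C1r, C1s, C4, C3 and C1 inhibitor in tissue.

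The libraries held 5379209 reads on genes in control replicate 3 and 24046020 to 38861152 in the others. Values are normalised read counts, that is, reads divided by a size factor per library, and where 3 values are given for a group they are in the order of replicates 1, 2 and 3. FAP and fibroblast markers were abundant in every library, with a sum over 10 markers of 362454 to 490350 in controls and 649501 to 833133 after C1q, and 7 of the 10 were higher after C1q, of which Col1a1 and Dpp4 lost the call in some fits that left out a library. Muscle-lineage RNA was present as well: the sum of 10 myogenic markers was 89467, 49947 and 27972 with vehicle and 16425, 25328 and 22071 with C1q, and 7 of the 10 were lower after C1q (0 higher; 9 with the replicate number as a block), of which Myog, Myh3 and Ckm lost the call in some such fits. Control replicate 1 held the most muscle-lineage RNA of any library. Of the FAP and fibroblast markers called higher, Pdgfra, Col1a1 and Dpp4 were not called with a trend of the values on transcript length removed. Their limma-trend adjusted p was then 0.0945, 0.187 and 0.0762, while Dcn, Lum, Dpt and Pi16 stayed called. In bulk RNA, fewer cells of a type and less RNA per cell cannot be told apart.

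Among the 8 genes, the 5 that act after C1q recognition (C1ra, C1s1, C4b, C2 and Serping1) had at least 1084 normalised reads in every library, and the 3 C1q chain genes were near 0. After C1q, C4b, C1s1 and C2 rose, by 1.57-fold, 1.496-fold and 1.83-fold. Serping1 stood 1.66-fold and C1ra 1.23-fold above control without passing the test. None of the 8 was called lower. The test was limma-trend on log2(value + 1), with Benjamini-Hochberg adjusted p below 0.05 over all 16671 genes, and fold changes are on that scale. The 3 of 8 called higher are 37.5%, and over all genes 19.7% were called higher and 18.7% lower (38.3% in either direction). The median log2 fold change of the 8 was 0.69, and that of all genes 0.03.

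The pairs of sequences printed next show how reads of 3 members can be told from reads of near-identical mouse duplicates, on which the values of these members depend. The C1ra coding sequence is 98% identical to that of C1rb, which lies nearby, with up to 757 bases in a row the same. C1s1 is 95.6% identical to C1s2, and the C4b coding sequence 96.1% identical to the C4a transcript, which is annotated as a processed transcript. Each pair is shown over the 60 bases where the alignment has the most mismatches (11, 17 and 13), from coding positions 1798, 1484 and 2705 of the member, with the mismatched bases in capitals (GENCODE vM21 transcripts, GRCm38).
C1ra: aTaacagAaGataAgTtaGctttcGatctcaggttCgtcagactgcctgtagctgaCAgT
C1rb: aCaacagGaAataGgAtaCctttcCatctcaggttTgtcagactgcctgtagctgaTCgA
C1s1: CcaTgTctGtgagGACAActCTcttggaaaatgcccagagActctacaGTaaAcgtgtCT
C1s2: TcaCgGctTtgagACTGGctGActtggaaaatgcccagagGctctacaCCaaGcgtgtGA
C4b: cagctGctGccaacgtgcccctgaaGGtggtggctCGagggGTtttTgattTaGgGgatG
C4a: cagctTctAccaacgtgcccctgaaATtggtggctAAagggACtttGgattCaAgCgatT
Of all stretches of 50 bases in the longest transcript, 50.8% in C1ra, 24.3% in C1s1 and 35.2% in C4b occurred unchanged in another gene on the same strand, and none did in Serping1 or the C1q chain genes. In the table, reads of C1rb were 0.601% to 1.37% of those of C1ra, reads of C1s2 0.122% to 0.200% of those of C1s1, and reads of C4a 0.129% to 0.594% of those of C4b. How the counting treated reads that match both copies is not given in the sources used here, so the 3 values are uncertain to that extent. For C2, 58.0% of the stretches are shared with Gm20547, an annotated gene model that overlaps C2 on the same strand.

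C1ra and C1s1 encode the paired proteases of the C1 complex and lie end to end on chromosome 6 (C1ra at 124512621 to 124523440, plus strand, and C1s1 at 124530344 to 124542392, minus strand, coordinates in GRCm38 throughout), 6903 bases apart. Normalised read counts of C1s1 were 9721, 12204 and 13918 with vehicle and 18653, 16552 and 17896 with C1q. All C1q-treated libraries were above all controls. C1s1 rose from 11948 ± 2110 to 17700 ± 1064 (SD, n = 3 throughout), a log2 fold change of 0.58 ± 0.14 (SE) with a limma-trend adjusted p of 0.0122. The call held without any 1 of the 6 libraries (log2 fold change 0.44 to 0.70, highest adjusted p 0.0496). An antisense transcript, Gm16567, covers 18.4% of the C1s1 exonic bases, and whether strand was used in counting is not given in the sources used here, so its reads cannot be told apart from those of C1s1.

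C1ra stood at 4657, 8218 and 8392 with vehicle and at 8457, 8518 and 8350 with C1q. Control replicate 1 was low, and the other 5 libraries lay close together with the groups overlapping. The means were 7089 ± 2108 and 8442 ± 85.0, with a log2 fold change of 0.30 (95% interval -0.19 to 0.79) and a limma-trend adjusted p of 0.300. Without control replicate 1, the library with the most muscle-lineage RNA, the log2 fold change was 0.02 (adjusted p 0.826). Levels are compared between genes per kilobase of the longest transcript. On that scale C1s1 exceeded C1ra 2.11, 1.503 and 1.68 times with vehicle and 2.23, 1.97 and 2.17 times with C1q. These ratios overlap between the groups.

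The stretches printed next show the sequence at the starts of these neighbouring protease genes, of which 1 was called and 1 was not. RefSeq windows around a transcription start were at hand for C1qb, C1qc, C1ra and C1s1 (build GRCm38.p6). They were searched on both strands for the interferon-gamma activated site (TTCNNNGAA), the interferon-stimulated response element (GAAA, any 2 bases, GAAA), a C/EBP motif (TTGCNNAA) and the kappa-B motif, since interferon, interleukin-6 and NF-kappa-B signals are known to drive complement genes. Capitals mark the matches. The upstream part of 1 of the 2 C1s1 windows (chr6:124542393-124542609, minus strand) holds 1 C/EBP match near its 5′ end, and a 30-base stretch just after the C1ra start (chr6:124512635-124512664, plus strand) holds a C/EBP match and an interferon-gamma activated site.
C1s1: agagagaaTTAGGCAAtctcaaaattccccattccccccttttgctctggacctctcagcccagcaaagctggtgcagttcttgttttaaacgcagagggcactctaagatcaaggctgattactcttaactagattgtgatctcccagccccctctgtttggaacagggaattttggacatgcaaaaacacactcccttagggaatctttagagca
C1ra: gtTTATGCAAatgcttcaTTCCCTGAAaca
C1qc had 1 kappa-B match and C1qb none of the 4 motifs. Over all 32851 windows, 8.30% held the interferon-gamma activated site, 3.44% the interferon-stimulated response element, 10.8% the C/EBP motif and 8.46% the kappa-B motif. These matches are a description of letters in a window.

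C4b and C2 encode the substrates that C1s cleaves, and both lie in the major histocompatibility region of chromosome 17 (C4b at 34728139 to 34743902 and C2 at 34862602 to 34882100, both on the minus strand). C4b stood at 6912, 6326 and 7155 with vehicle and at 10488, 11348 and 10077 with C1q. The groups were far apart relative to their spread, and control replicate 1 was not the lowest control. C4b rose from 6798 ± 426 to 10638 ± 649, at a log2 fold change of 0.65 ± 0.08 (SE) and a limma-trend adjusted p of 9.05e-04. It kept its call without any 1 of the 6 libraries (log2 fold change 0.60 to 0.68). With a trend of the values on transcript length removed, the log2 fold change of C4b, which has the longest transcript of the 8 at 5379 bases, was 0.37 (adjusted p 0.00827).

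C2 stood at 1084, 1864 and 2376 with vehicle and at 3189, 2754 and 3348 with C1q. The groups did not overlap, but the highest control was 2.19 times the lowest. C2 rose from 1775 ± 651 to 3097 ± 308, at a log2 fold change of 0.87 ± 0.26 (SE) and a limma-trend adjusted p of 0.0312. The call was lost without control replicate 2 (adjusted p 0.0557) or C1q replicate 1, 2 or 3 (0.0884, 0.0588 and 0.0943), and the log2 fold change was 0.55 when control replicate 1 was left out and 1.12 when control replicate 3 was. Cfb, the alternative pathway counterpart of C2, ends 87 bases from it and rose from 2781 ± 648 to 5494 ± 361 (adjusted p 0.00228). The ratio of C2 to Cfb per kilobase was 0.524, 0.708 and 0.718 with vehicle and 0.582, 0.504 and 0.687 with C1q, with the groups overlapping.

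Over all genes, 19.7% were called higher and 18.7% lower. Of 22 other measured genes within 100000 bases of C4b and C2, Cfb was the 1 called higher, 10 were called lower and 11 were not called. The genes called lower included Neu1, which encodes the lysosomal sialidase, at a log2 fold change of -0.82 (adjusted p 5.64e-04), and Dxo, which encodes an RNA decapping enzyme, at -0.43 (adjusted p 0.00692), both named after their values were seen. Around C1ra and C1s1, C1s2 was the 1 of 5 neighbours called higher (16.2 ± 2.00 to 29.6 ± 5.56, limma-trend adjusted p 0.0492, and 0.0714 with the replicate block), and its call held in 1 of the 6 fits that left out a library. C1rb stood at 66.2 ± 42.7 and 91.1 ± 10.3, C1rl, which encodes a protease related to C1r, at 374 ± 42.1 and 400.2 ± 22.4, and C4a at 26.5 ± 14.2 and 23.5 ± 7.79, with adjusted p of 0.258, 0.484 and 0.877.

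Serping1 encodes the C1 inhibitor, which also restrains plasma kallikrein and factor XII (chromosome 2, 84765360 to 84775444, minus strand). It was the most abundant of the 8, and per kilobase it ranked 54 of 14933 genes in controls. It stood at 23089, 33218 and 48165 with vehicle and at 52765, 51100 and 62551 with C1q. The groups did not overlap, but control replicate 3 came close to the lowest C1q-treated library, and the highest control was 2.09 times the lowest. The means were 34824 ± 12615 and 55472 ± 6187, with a log2 fold change of 0.73 ± 0.25 (SE, 95% interval 0.14 to 1.32 for this gene alone) and a limma-trend adjusted p of 0.0548, so Serping1 was not called. With the replicate number as a block the adjusted p was 0.0145, which made 4 of the 8 genes called higher (and 21.3% of all genes in that fit), and it was 0.00764 with DESeq2 and 0.0615 with edgeR on the recovered reads. It was 0.00581 without control replicate 3 (log2 fold change 1.00), the shallowest library, and 0.115 without control replicate 1 (0.47). Per kilobase, Serping1 was 2.69, 2.72 and 3.61 times C1ra and C1s1 together with vehicle and 3.26, 3.41 and 3.99 times with C1q, and these ratios overlap between the groups.

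**Figure D1:**
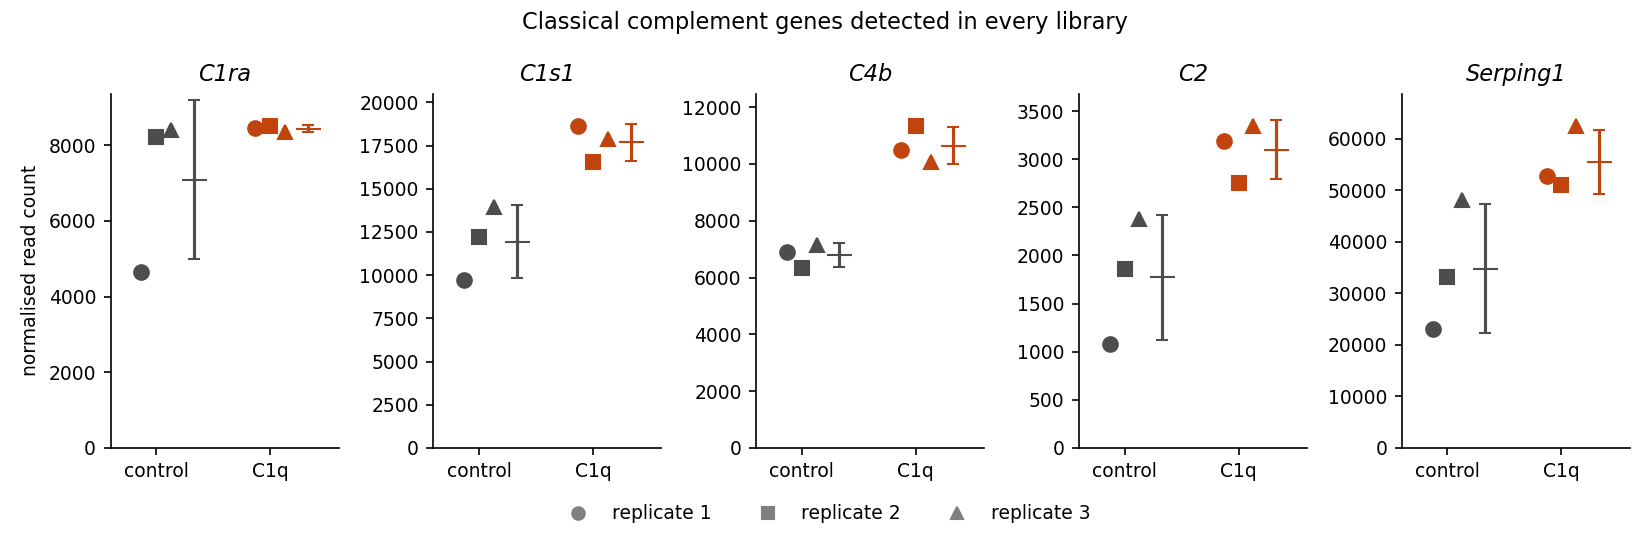
Normalised read count (vertical axes, from 0) of the 5 classical complement genes detected in every library, with grey for control, orange for C1q-treated and a symbol for each replicate number. Bars beside the points are the mean ± SD of 3 libraries. C1s1, C4b, C2 and Serping1 do not overlap between groups, C1ra does, and control replicate 1 is the lowest library for 4 of the 5 genes.

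Groups did not overlap, with C1q higher, at 4 of the 8 genes (C1s1, C4b, C2 and Serping1), and over all genes at 26.8% in that direction and 52.1% in either. The order of levels per kilobase was the same in each of the 6 libraries: Serping1, then C1s1, C1ra, C4b and C2. In controls these levels were 19697 ± 7135, 4056 ± 716, 2378 ± 707, 1264 ± 79.2 and 672 ± 246 per kilobase, and after C1q they were 31376 ± 3499, 6008 ± 361, 2832 ± 28.5, 1978 ± 121 and 1173 ± 116. No neighbours in this order overlapped within either group. The C1q chain genes were below them all, and their order could not be told at a few reads.

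Within the controls, 4 of the 5 detected genes shared a pattern. C1ra, C1s1, C2 and Serping1 were lowest in control replicate 1 and highest in control replicate 3. The summed myogenic markers were the other way round (89467 and 27972). Myf5 stood at 4.66, 11.6 and 17.0 over the controls, but from only 8, 15 and 4 reads. The sum of 5 tenocyte (tendon-cell) markers went the same way as those 4 genes, at 9636, 18029 and 35688 with vehicle. With C1q it was 50663, 44472 and 96309, and the order of libraries within each group was that of C2 and Serping1. Most of the sum was Thbs4 (6709, 11910 and 27050 with vehicle), which was not called (limma-trend adjusted p 0.0556). Of the 5 markers, Tnmd and Fmod rose (324 ± 164 to 1851 ± 504 for Tnmd, limma-trend adjusted p 0.00139) and Scx, a tendon transcription factor gene, fell from 358 ± 55.4 to 156 ± 37.9. Unlike the sum, Scx also fell over the controls (413, 358 and 302). The SD of log2 values over controls was 0.48 for C1ra, 0.26 for C1s1, 0.58 for C2 and 0.53 for Serping1, and 0.09 for C4b, against a median of 0.15 over the 12440 genes whose mean log2(value + 1) was 5 or more. Over C1q-treated libraries it was 0.01, 0.09, 0.15, 0.16 and 0.09 in the same order, against a median of 0.09. Read depth also ran in 1 direction over the controls, at 38861152, 29325341 and 5379209 reads. The part of muscle-lineage RNA, tendon-cell RNA or read depth in these differences among libraries was not tested.

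**Figure D2:**
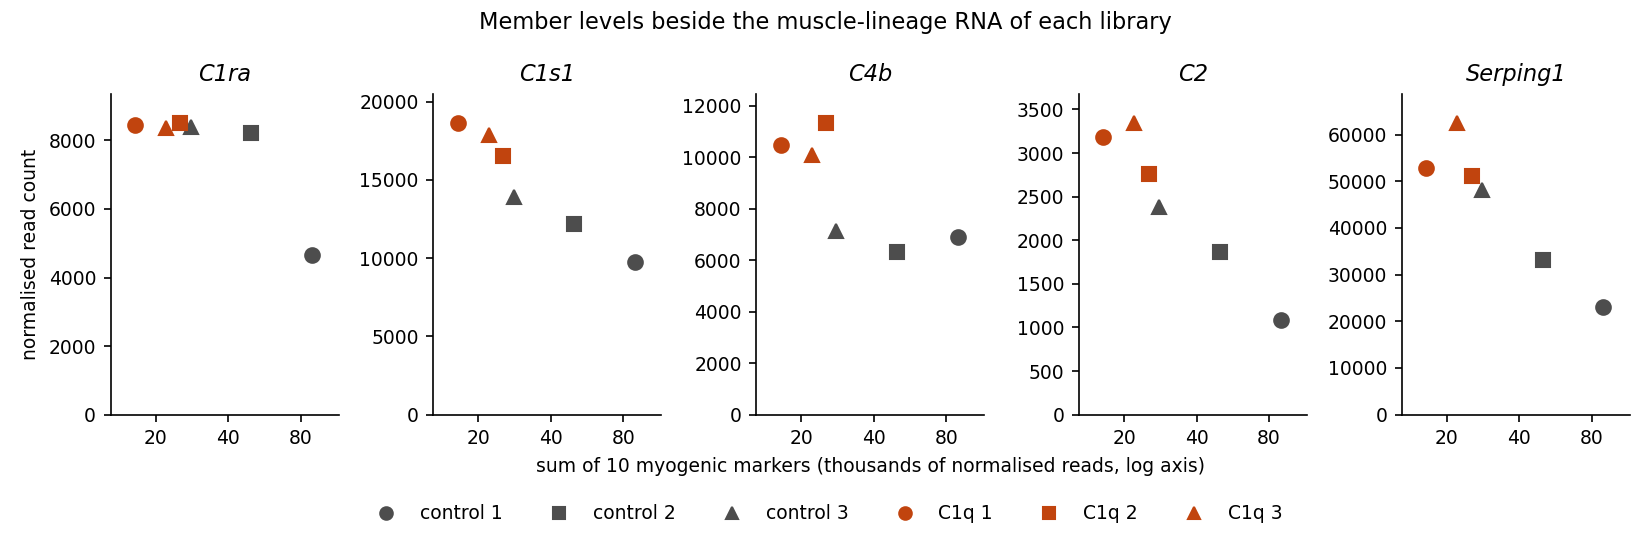
Normalised read count of each detected gene (vertical axes, from 0) against the summed level of 10 myogenic markers in the same library (horizontal log axis, normalised reads as labelled), 1 point per library. Control replicate 1, with the highest sum of 89467, is lowest for C1ra, C1s1, C2 and Serping1, while C4b lies between 6326 and 7155 in all controls.

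**Figure D3:**
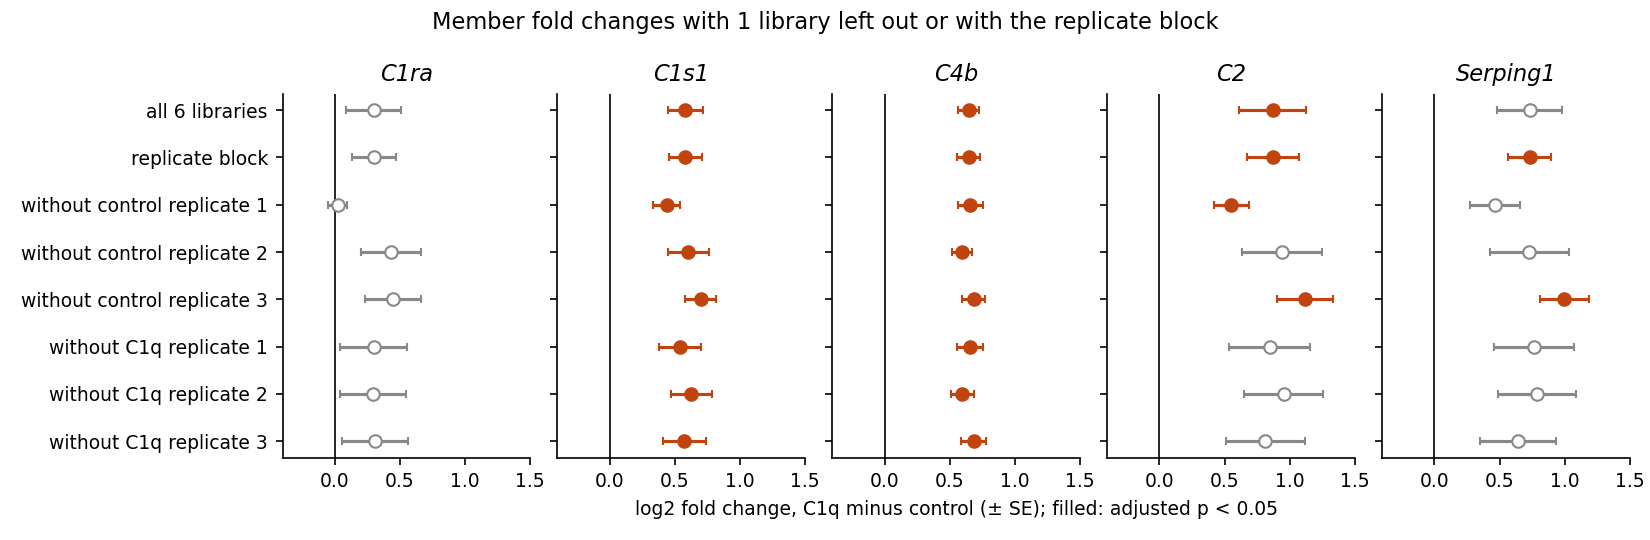
Log2 fold change ± SE (horizontal axes) of the detected genes in the fit of all 6 libraries, with the replicate block and with each library left out, where filled points have an adjusted p below 0.05. C4b and C1s1 stay filled in every row, C2 is filled in 2 of the 6 rows that leave out a library, Serping1 in 1 and C1ra in none.

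The mRNAs of the C1q chains themselves were almost absent. C1qa, C1qb and C1qc lie together within 18719 bases on chromosome 4 (from 136880126 to 136898844, minus strand). C1qa had 8 reads in control replicate 2, 14 in C1q replicate 2 and 0 in the other 4 libraries. C1qb had 2 reads in control replicate 2, 9 in C1q replicate 2, 1 in C1q replicate 3 and 0 in the other 3. C1qc had 15 reads in control replicate 2, 24 in C1q replicate 2, 2 in C1q replicate 3 and 0 in the other 3. So 72 of the 75 reads of these genes came from the replicate 2 libraries, 1 in each group. A count of 0 allows up to 3 reads, equal to a normalised count of 1.75 in control replicate 1, 12.8 in control replicate 3, 2.11 in C1q replicate 1 and 2.24 in C1q replicate 3, for counting error only. The limma-trend adjusted p was 0.858, 0.487 and 0.705, and no difference between the groups was detectable. Control replicate 1, the deepest library, held none of these reads, and the part of read depth in them was not tested. The C1q given to the cells was protein, so these reads do not measure it.

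Myeloid markers did not move as 1 list between the libraries. Of 17 macrophage and myeloid markers without the C1q chains 13 were measured, and for 6 of the 13 (Adgre1, Mrc1, Lyz2, Tyrobp, Fcer1g and Laptm5) the replicate 2 library was the highest of its group in both groups, by normalised count. Adgre1, which encodes the macrophage marker F4/80, had 7 reads in control replicate 2 and 22 in C1q replicate 2, and at most 1 elsewhere. Tyrobp, which encodes a myeloid signalling adaptor, had 4 and 20 reads in the replicate 2 libraries and 0 in the other 4. The other 7 did not follow this in both groups. By normalised count, the macrophage growth factor receptor gene Csf1r stood at 68.2, 54.1 and 68.0 with vehicle and at 42.3, 55.6 and 33.6 with C1q. The scavenger receptor gene Cd163 stood at 19.2, 3.86 and 4.25 with vehicle and at 1.41, 3.90 and 4.48 with C1q. Csf1r, Cd68 and Itgam were highest in replicate 2 in the C1q group only. The summed level of the 13 was 586 to 842 in controls and 495 to 893 after C1q, with 0 called higher and 2 lower (Cd14, whose call held in 2 of the 6 fits that left out a library, and Cx3cr1). With the replicate block Lyz2, which encodes lysozyme, was called higher (limma-trend adjusted p 0.00560). The part of myeloid RNA in the C1q chain reads was not tested.

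**Figure D4:**
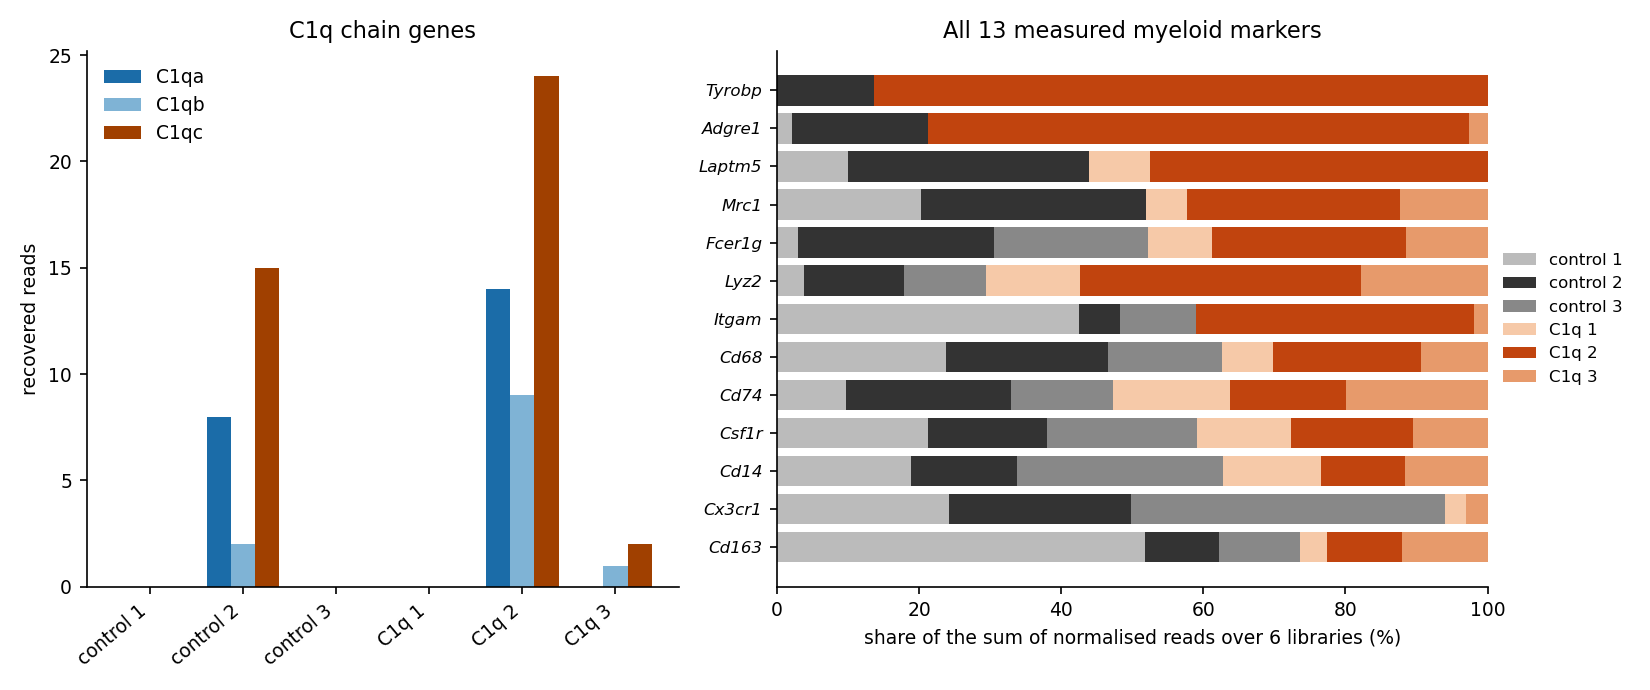
Left, recovered reads (vertical axis, from 0) of the C1q chain genes in each of the 6 libraries. Right, for all 13 measured myeloid markers, the share (%) of each marker's summed normalised reads held by each library, ordered by the share in the replicate 2 libraries (darkest in each colour): Tyrobp and Adgre1 lie almost wholly in them, and Csf1r, Cd14, Cx3cr1 and Cd163 do not.

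Outside the 8 genes, 36 other complement genes of the lists were measured, of which 7 (19.4%) were higher and 1 was lower, with a median log2 fold change of 0.60. The share called higher is near the 19.7% of all genes. C3, which the classical convertase cleaves, rose most among those called, from 5144 ± 1892 to 26225 ± 4732 (log2 fold change 2.40, limma-trend adjusted p 5.85e-04). Of 5 genes of C3 and the alternative pathway, C3 and Cfb rose. Cfd, which encodes factor D, stood at 1032 ± 883 and 2569 ± 1507 (adjusted p 0.117, and 0.0139 with the replicate block), and Cfp, which encodes properdin, at 57.0 ± 5.64 and 52.5 ± 4.52. The lectin pathway, which activates the same C4 and C2 through other proteases, had 0 of 5 measured genes called. Masp1, a C1r and C1s relative, stood at 636 ± 466 and 362 ± 82.0, and the collectin gene Colec12 at 17409 ± 1472 and 16459 ± 983. The genes of that list with a lower p than Masp1 stood higher after C1q, at few reads.

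Among 12 inhibitors and regulators measured, 4 rose and 0 fell, where 19.7% of all genes were called higher and 18.7% lower. Clu, which encodes clusterin, rose from 683 ± 217 to 1945 ± 533, and Cd59a, which encodes an inhibitor of the membrane attack complex, from 126 ± 24.7 to 238 ± 5.26 (limma-trend adjusted p 0.00370 and 0.00302). Cd55, which encodes decay-accelerating factor, rose from 569 ± 33.3 to 1081 ± 319 (adjusted p 0.0139, and 0.0548 without C1q replicate 2), and Csmd1 from 37.6 ± 15.3 to 163 ± 79.7. Cr1l, which encodes the mouse regulator Crry, stood at 1029 ± 85.0 and 1140 ± 14.9 (adjusted p 0.159). Of 3 terminal pathway genes measured none was called, and C7 stood at 522 ± 227 and 1017 ± 397 (adjusted p 0.0910, and 0.00276 with the replicate block). Of 7 receptors for complement fragments, Itgb2, an integrin chain of leukocytes, fell from 58.0 ± 21.6 to 17.3 ± 6.64, and C3ar1, C5ar1, C5ar2 and Cr2 were each at a mean of 5.59 or less in both groups.

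**Figure D5:**
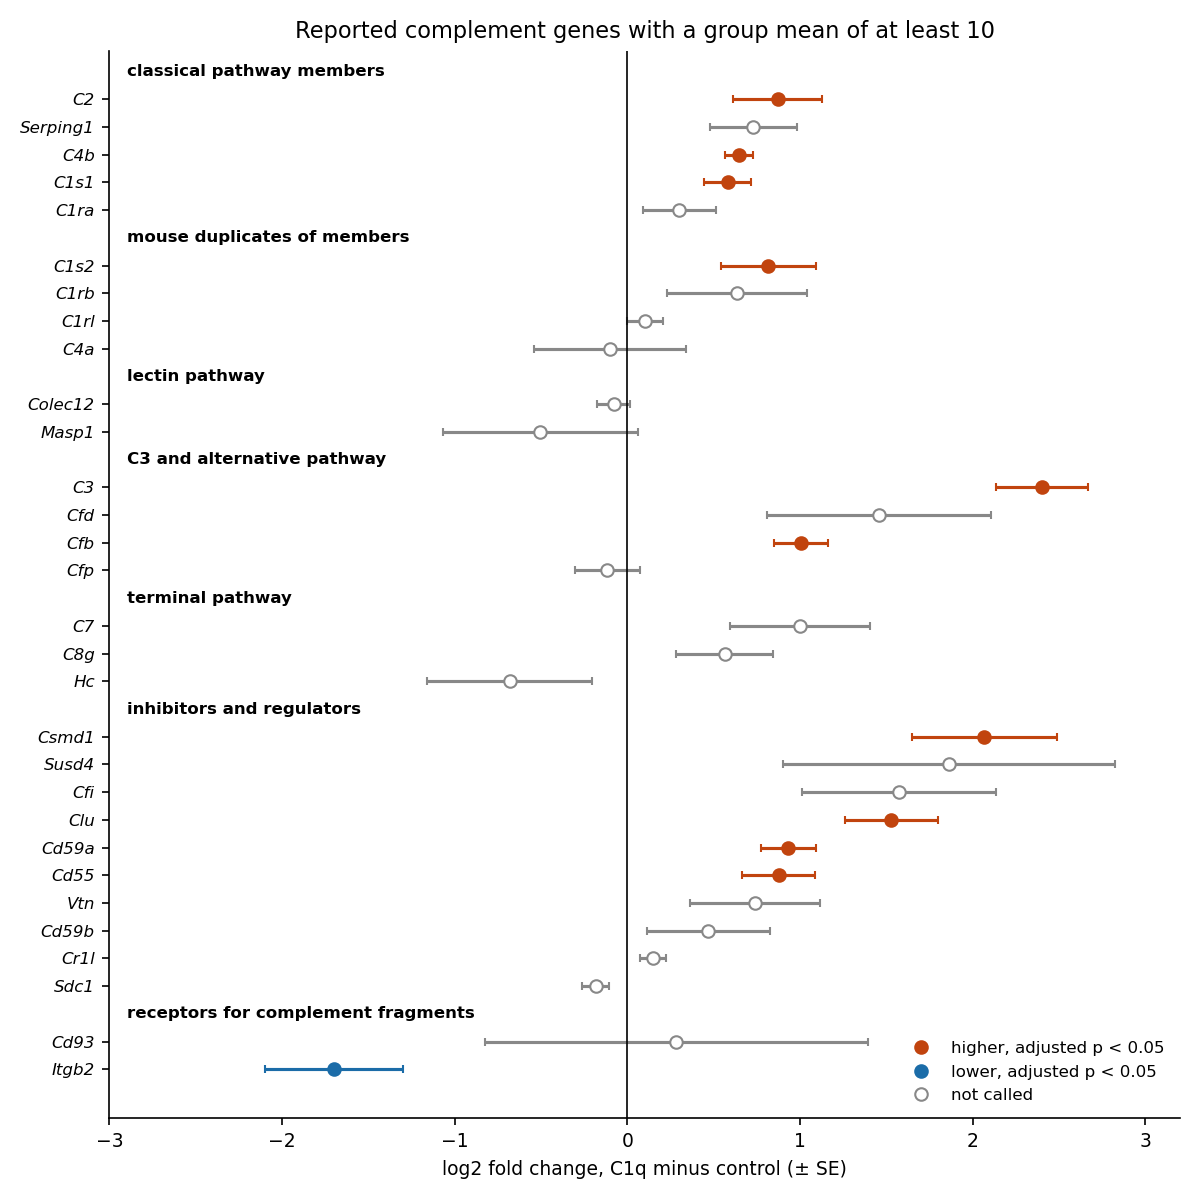
Log2 fold change, C1q minus control, ± SE (horizontal axis) of complement genes with a mean of at least 10 in either group and reported here, by list, with filled points for those called. C1s1, C4b and C2 lie between 0.58 and 0.87, below C3 at 2.40 and Cfb at 1.01, and Itgb2 is the filled point to the left of 0.

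Signals known to drive complement genes in fibroblasts and liver run through interferon, interleukin-6, interleukin-1 and NF-kappa-B. Of 18 receptors, kinases, factors and feedback inhibitors (Socs1 and Socs3) of these signals, 6 were higher and 3 lower. Their median log2 fold change was 0.19, and over all genes 19.7% were called higher and 18.7% lower. The calls of Il1r1 (higher), Tnfrsf1a and Socs3 (lower) held in 3, 1 and 1 of the 6 fits that left out a library. The interleukin-6 family co-receptor gene Il6st rose from 27117 ± 3712 to 56979 ± 1550, the interferon-gamma receptor gene Ifngr1 from 1862 ± 178 to 2784 ± 113, and the kinase gene Jak2 from 1116 ± 202 to 1892 ± 193 (limma-trend adjusted p 7.51e-04 to 0.00363). Cebpb, which encodes a C/EBP factor, fell from 4492 ± 307 to 2358 ± 148 (adjusted p 2.65e-04). Whether any of these moves the classical pathway genes was not tested.

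For each detected member, the 3 genes most like it were found by Pearson's r of log2(value + 1) over the 6 libraries, among 11948 genes that passed the same mean level and have a symbol that is not provisional (Gm, Rik or LOC). With r of 0.984 to 0.988, C1ra was closest to Tle1, H2-T10 and Tsc22d4. C1s1 was closest to Fam3a, Mysm1 and Zbtb6 (0.991 to 0.993), and C2 to Zfp760, Rad9b and Taz (0.991 to 0.997). C4b was closest to Top2b, Megf9 and Sufu (0.998 for each), and Serping1 to Slfn8, Pcdhb17 and Aldh1a2 (0.995 to 0.997). With 6 libraries in 2 groups such values are high for many genes, and no member was among the 3 closest genes of another.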

How the data were processed

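The authors deposited normalised read signal per Entrez gene, under headers that speak of counts. The submitters' processing notes name Trimmomatic, HISAT2, featureCounts, DESeq2 and mm10, without versions, annotation or strand setting. Values are whole multiples of 1 read per library: 100% came out whole within 0.001 of a read, so reads were recovered. Cell sorting and low-input cDNA from 10 ng of RNA are per the labels, whose extraction text names muscle stem cells. Symbols came from RefSeq GRCm38.p6 (16077 of 16671 IDs) and transcript lengths from GENCODE vM21 (89.6%).

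Groups were compared by limma-trend (limma 3.58.1, R 4.3.3) on log2(value + 1), checked for direction and recovery on simulated data. The simulation had few changed genes, the same noise for every gene and no replicate effect, so it does not test the calls in these data. edgeR 4.0.16 and DESeq2 1.42.0 on recovered reads, other pseudocounts (0.5 and 5), a mean of at least 10, library totals, filterByExpr, limma-voom, thinning to 5379209 reads, a loess on length (span 0.5, genes with a mean of at least 20) and leaving out each library were alternatives. edgeR with TMM called 6881 genes and limma-trend 6389.

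Deviations from group means correlated at 0.123, 0.175 and 0.132 for same-numbered replicates 1, 2 and 3, and at -0.132 to 0.00485 for other pairs. Deviations cancel out within a group, so the values of same-numbered and other pairs are not independent. On these weak correlations the numbers were taken to pair libraries, from the data and not the labels, and the block was an alternative. The p-values with the block rest on that choice, made with the data seen. No replicates agreed within sampling noise (chi-square per degree of freedom 16.5 to 40.3). Members and lists were chosen with earlier results of these data known. The rule for named genes took all 8 members, up to 4 genes per list by lowest p, and the 3 genes most like each detected member. Others are named to describe a list, among them Masp1 and Colec12, which did not have the lowest p of the lectin pathway. Some genes of the lists are counted but not reported here by name.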

Additional observations from a re-analysis of the deposited data

How the results depend on the processing

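C4b and C1s1 kept their direction and call in all 18 alternatives. C2 kept its call in the 12 alternatives that used every library and in 2 of the 6 that left out a library (log2 fold change 0.55 to 1.12, adjusted p 0.00617 to 0.0943). Serping1 passed the threshold with DESeq2 (log2 fold change 0.67), with the replicate block (0.73), with the length trend removed (0.95) and with the length trend removed together with the block (0.95, adjusted p 0.00851), and leaving out a library gave 0.47 to 1.00. C1ra was called in none, at 0.02 to 0.45. The C1q chain genes were called in none: C1qa turned to -0.35 with limma-voom and -0.38 after thinning, and leaving out a library gave -0.95 to 1.29 for C1qa, -0.047 to 1.598 for C1qb and -0.56 to 1.98 for C1qc, whose reads come mostly from 2 libraries.

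Genes called numbered 4599 to 7338, and members called 2 to 4. The replicate block changed the call of no member other than Serping1. Among the 4 duplicates of members, 1 was called, against 0 with a pseudocount of 0.5, DESeq2, thinning or the replicate block (alone or with the length trend removed), 2 with limma-voom, and 0 to 2 when a library was left out. In the lectin pathway 0 were called, against 1 with the length trend removed (alone or with the block) and 0 to 1 when a library was left out. In the terminal pathway 0 were called, against 1 with limma-voom, the replicate block or the length trend removed, 2 with the length trend and block together, and 0 to 1 when a library was left out. The cause of these changes was not tested. Depth limits the low values of control replicate 3, where 1 read is worth 4.25 normalised counts.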

Other observations

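Of 8 endothelial markers, 4 (Pecam1, Tek, Egfl7 and Cldn5) were highest in the replicate 2 library of both groups by normalised count, and the other 4 (Cdh5, Kdr, Flt1 and Emcn) were not. Pecam1, an endothelial adhesion gene, had 123 reads in control replicate 2 and 14 in C1q replicate 2, and 8 or fewer in the others. Flt1, a receptor gene for vascular endothelial growth factor, was lowest in replicate 2 of both groups, at 73.4 and 95.5 normalised reads. Cd93, which has been described as a C1q receptor and is made by endothelial and myeloid cells, had 11, 191 and 2 reads with vehicle and 17, 46 and 41 with C1q.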
